A study of Mus musculus with 29 samples.

Results

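Binding of the glucocorticoid receptor (GR) and of C/EBPβ was followed around 6 genes of the circadian clock in mouse liver: Arntl and Clock, Nr1d1, and the output regulators Dbp, Nfil3 and Bhlhe40. The members were all ChIP-seq peaks and all ChIP-exo borders whose centre lay in a fixed window around each gene, given in positions of the mm9 build. The windows spanned chromosome 11 at 98.58 to 98.69 Mb for Nr1d1, chromosome 7 at 52.91 to 53.02 Mb for Dbp and 120.30 to 120.51 Mb for Arntl. Those of Clock, Nfil3 and Bhlhe40 spanned chromosome 5 at 76.59 to 76.79 Mb, chromosome 13 at 53.01 to 53.13 Mb and chromosome 6 at 108.56 to 108.67 Mb. Together they covered 860 kb and held 36 of 38186 GR peaks, 90 of 69811 C/EBPβ peaks and 243 of 255667 ChIP-exo borders. The GR peaks of all lists merged into 18 regions of the 15329 in the genome. Regions are numbered along the chromosome within each window. The windows can also hold neighbouring genes, such as Rassf10 and Btbd10 beside Arntl or Itpr1 and Arl8b beside Bhlhe40 in RefSeq.

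GR was profiled in livers of GRdim mice, which carry a receptor mutation known to impair GR dimerization, and of GR+/+ litter mates (WT). The mice were males of 12 weeks, back-crossed to the BALB/c background, on a cycle of 12 h light and 12 h dark. Livers were taken at 6am after 24 h with subcutaneous prednisolone pellets (12 mg/kg), and without it at 6pm, the start of the dark phase, or at 6am, the start of the light phase. The labels describe no sham pellet. C/EBPβ is a bZIP factor of hepatocytes and was profiled in WT only, at the same times and after the same treatment. By the labels 2 replicates were pooled into each list, so there is no spread between replicates and differences were not tested. The 95% intervals cover counting only. Whole liver was used, so binding in few cells and weak binding in many cannot be told apart.

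CLOCK and BMAL1, the product of Arntl, form the heterodimer that drives the circadian clock through E-box elements. REV-ERBα, the product of Nr1d1, is a nuclear receptor that represses Arntl through the shared Rev-erb and ROR element. DBP activates genes through the D-box and NFIL3 represses them there, while BHLHE40 (DEC1) represses E-box transcription. In liver the clock times metabolic genes, and glucocorticoids are a hormonal time signal to it.

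The promoters of the genes were searched for motifs of the clock factors, of C/EBP and of GR, and the stretches with a match are given as descriptions of sequence. Promoters from RefSeq, in the GRCm38.p6 build and covering 250 bases before to 50 after the gene start, were matched for 5 of the 6 genes. Bhlhe40 had no entry and was not searched, and the other 5 genes had 8 promoters. The core TAGGTCA of the Rev-erb and ROR element was found on either strand in those of Arntl and Nfil3, and in 2.61% of all 32851 promoters. The C/EBP-type motif TTGCNNAA was found in that of Nr1d1 and in 10.8% of all. The capitals mark the match on either strand, and each stretch is written along its gene's strand.

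Arntl, GRCm38.p6 chr7:113207530-113207559, plus strand: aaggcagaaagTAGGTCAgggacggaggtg

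Nfil3, GRCm38.p6 chr13:52981033-52981062, minus strand: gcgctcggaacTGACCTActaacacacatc

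Nr1d1, GRCm38.p6 chr11:98775483-98775512, minus strand: ccagcaagcacTTTTGCAAagcagaaaagg

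The E-box CACGTG (7.15% of all promoters), the D-box TTATGTAA (0.938%) and the GR half-site AGAACA (19.0%) were in none of the 8 promoters searched. Nor was the GR palindrome (0.00913%), made of that half-site, 3 free bases and its reverse complement. All motifs were searched on both strands. The peaks are in mm9, so they were not placed on these promoters.

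The most GR peaks around the clock genes were in the 6pm lists, which are also the longest. The GRdim lists held 2 peaks of the windows after prednisolone, 8 at 6pm and 1 at 6am, which is 0.0623%, 0.108% and 0.0314% of each list. The WT lists held 3, 18 and 4 in the same order, or 0.0697%, 0.126% and 0.0692%. All 18 regions were in the WT list of 6pm, which holds 93.1% of all GR regions, and 7 of the 18 were in no other list, against 35.1% of all. The windows of Arntl, Clock, Nr1d1 and Dbp had no GR peak at 6am in either genotype and none after prednisolone in WT.

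The WT list of 6pm is also the longest, with 14270 peaks against 4304 after prednisolone and 5781 at 6am. In GRdim the 6pm list, cut by score to the length of the 6am list, held 3 peaks of the windows, against 1 at 6am. In WT the list of 6pm cut to 5781 peaks held 4, as many as the 6am list. Those 4 lay in the windows of Arntl (1), Nfil3 (1) and Bhlhe40 (2). With all 3 WT lists cut to 4304 peaks, they held 3 after prednisolone, 2 at 6pm and 3 at 6am. The GRdim lists cut to 3183 peaks held 2, 3 and 1 in the same order. The number of window peaks thus moved with list length, whose part in the result was not tested further.

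Most of these peaks were weak in their list. The score is the authors' own value per peak, in an unstated unit, and no list holds a score below 2.00. Scores of 1 region in several lists are set side by side without a test, since their scaling between lists is not known. In WT the window peaks had a median score of 3.98 after prednisolone, 2.71 at 6pm and 2.60 at 6am, against 2.93, 3.36 and 2.89 over the whole lists. Only 4 of the 18 regions reached a score of 4 in any list, 1 in the Nfil3 window and 3 in the Bhlhe40 window.

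**Figure D1:**
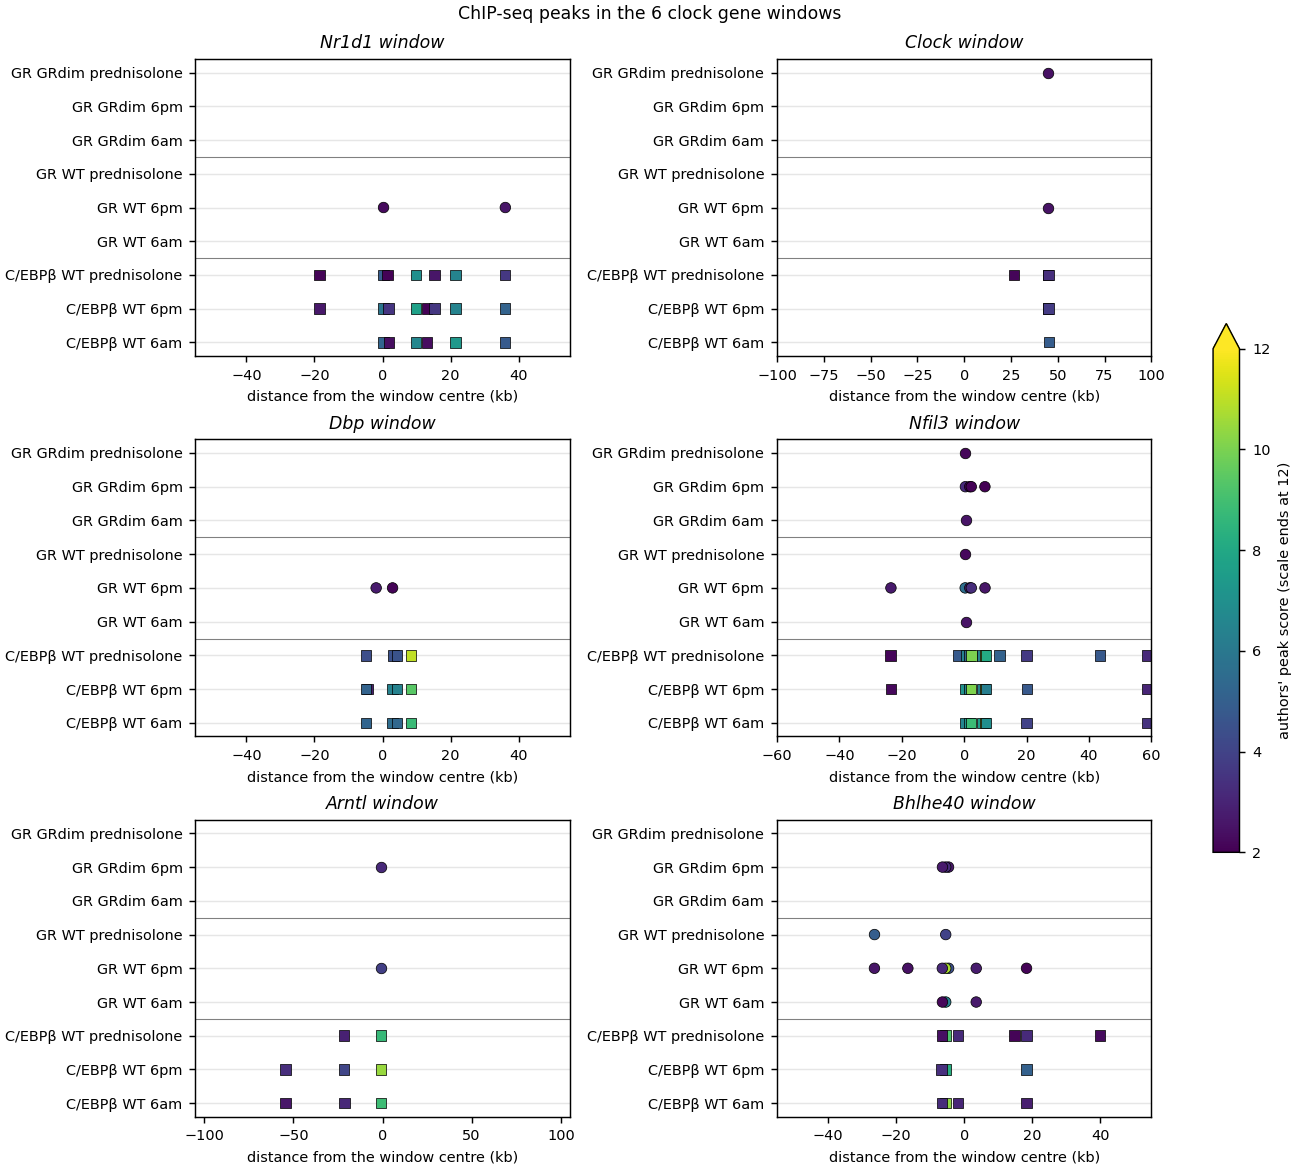
ChIP-seq peaks in the 6 windows, by distance from the window centre in kb (x) and by list (y), with circles for GR, squares for C/EBPβ and colour for the authors' score. WT at 6pm is the one GR list with a peak in each window, and C/EBPβ peaks are in all windows under each condition.

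The activators Arntl and Clock each had 1 GR region. Arntl region 1, on mm9 chromosome 7 at 120404137 to 120404369, was listed at 6pm in both genotypes and in no other GR list. Its 6pm scores were 3.16 in GRdim (rank 2979 of 7440) and 3.87 in WT (rank 5536 of 14270). The region held C/EBPβ in all 3 lists, with scores of 8.69 after prednisolone, 10.44 at 6pm and 8.84 at 6am. The centres of the WT GR peak and the C/EBPβ peak of 6pm were 2 bp apart.

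ChIP-exo adds exonuclease digestion of the crosslinked DNA, which stops near the protein, and yields borders of 10 bp on 1 strand with a tag count. Tags of the listed borders were summed per region and divided by the library size (RPM). Borders were called separately in each library and an unlisted one adds nothing, so a ratio of sums also moves with how many borders were listed and is not a fold change at common positions. Arntl region 1 had 0.199 RPM in GRdim after prednisolone (exact Poisson interval 0.0911 to 0.378) and 0.183 RPM at 6pm (0.0788 to 0.360), from 1 border each, and none was listed at 6am. In WT it had 0.347 RPM after prednisolone (0.209 to 0.543), 2.02 RPM at 6pm (1.62 to 2.49) and 0.646 RPM at 6am (0.452 to 0.894). The WT sum of 6pm was 3.13 times that of 6am, and their intervals did not overlap. At 6am and after prednisolone, WT borders were therefore listed at a place where no GR peak was.

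Clock region 1, on chromosome 5 at 76734723 to 76734938, was present in 2 GR lists, that of GRdim after prednisolone (score 2.45, rank 1836 of 3208) and that of WT at 6pm (score 2.48, rank 10828 of 14270). It was the sole region of the windows listed in GRdim after prednisolone and absent from the WT list of that condition. The GRdim ChIP-exo library of prednisolone had 2 borders there, with 0.465 RPM (0.288 to 0.711), and that of WT nevertheless had 3 borders with 0.567 RPM (0.385 to 0.805). These intervals overlapped. WT at 6am had 1 border with 0.144 RPM, and the library of WT at 6pm, the condition with the peak, listed none. C/EBPβ overlapped the region after prednisolone (3.55) and at 6pm (3.19) and did not at 6am. A separate C/EBPβ site just past the region, at 76735050 to 76735257, was listed under all 3 conditions. It scored 3.34 after prednisolone, 3.75 at 6pm and 4.90 at 6am.

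Nr1d1, the gene of REV-ERBα, had 2 GR regions, both in WT at 6pm alone and both with C/EBPβ under all 3 conditions. By RefSeq (GRCm38.p6) the gene overlaps Thra, which encodes a thyroid hormone receptor, and Msl1 is its neighbour on the other side. Peaks were not placed on genes, so those of this window cannot be assigned to 1 of them. Region 1, on chromosome 11 at 98635204 to 98635403, scored 2.27 for GR, and its C/EBPβ scores were 4.88 after prednisolone, 5.87 at 6pm and 5.18 at 6am. Region 2, at 98670980 to 98671179, scored 2.56 for GR, with C/EBPβ scores of 3.63, 5.13 and 4.78 in the same order. The ChIP-exo library of WT at 6pm had 1 border of 18 tags in region 2 and none in region 1. In region 1 a single border of 10 tags was listed in WT at 6am.

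Dbp, the gene of the D-box activator, likewise had 2 GR regions and both were in WT at 6pm alone. It overlaps Sphk2, a sphingosine kinase gene, in the same annotation. Region 1, on chromosome 7 at 52963035 to 52963234, scored 2.74 and had no C/EBPβ peak in any list, the nearest of 6pm being centred 2582 bp away. It held 2 borders of WT at 6pm with 0.580 RPM (0.375 to 0.856) and none of any other library. A plus-strand border of GRdim after prednisolone, with 13 tags, lay just outside it at 52963010 to 52963019. Region 2, at 52967855 to 52968054, scored 2.08 and held 1 border of 11 tags. Its C/EBPβ scores were 6.39 at 6pm and 5.55 at 6am, and C/EBPβ was not listed there after prednisolone. A C/EBPβ peak listed only after prednisolone, with a score of 4.49, lay next to it at 52968091 to 52968290.

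Nfil3, the gene of the D-box repressor, had 5 GR regions and the one region of the windows present in all 6 GR lists, a state shared by 10.1% of all GR regions. Nfil3 region 2, on chromosome 13 at 53070230 to 53070551, had GRdim scores of 2.19 after prednisolone, 3.20 at 6pm and 2.53 at 6am. In WT it scored 2.21 after prednisolone, 5.59 at 6pm and 2.51 at 6am. In both genotypes its highest score was at 6pm, and its WT rank there was 2590 of 14270. C/EBPβ scored 6.43, 7.13 and 6.59 after prednisolone, at 6pm and at 6am.

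In the ChIP-exo sums of Nfil3 region 2, the order of the conditions differed from that of the scores in GRdim and matched it in WT. GRdim had 2.08 RPM after prednisolone (1.68 to 2.55, 7 borders), 0.799 at 6pm (0.556 to 1.11, 3 borders) and no listed border at 6am. WT had 0.530 RPM after prednisolone (0.355 to 0.762), 1.11 at 6pm (0.821 to 1.48) and 0.664 at 6am (0.467 to 0.915). After prednisolone the sum was thus higher in GRdim than in WT, with intervals that did not overlap. Borders outside the region were not summed, such as a WT border of 6pm with 22 tags just outside it, at 53070187 to 53070196.

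Nfil3 regions 3, 4 and 5, at 53071684 to 53071896, 53072182 to 53072386 and 53076555 to 53076784, were listed at 6pm in both genotypes and in no other GR list. Their 6pm scores were 2.11, 2.04 and 2.00 in GRdim and 2.85, 3.25 and 2.56 in WT. Each sat on a C/EBPβ site of all 3 conditions, with centres 9 to 28 bp from that of the C/EBPβ peak. Region 5 held the C/EBPβ peak with the highest score of the windows, 11.88 after prednisolone, 11.66 at 6pm and 13.91 at 6am. None of these 3 regions had a GRdim border at 6pm. Nfil3 region 1, at 53046431 to 53046630, was in WT at 6pm alone with 2.67, and C/EBPβ was listed there after prednisolone (2.12) and at 6pm (2.23).

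**Figure D2:**
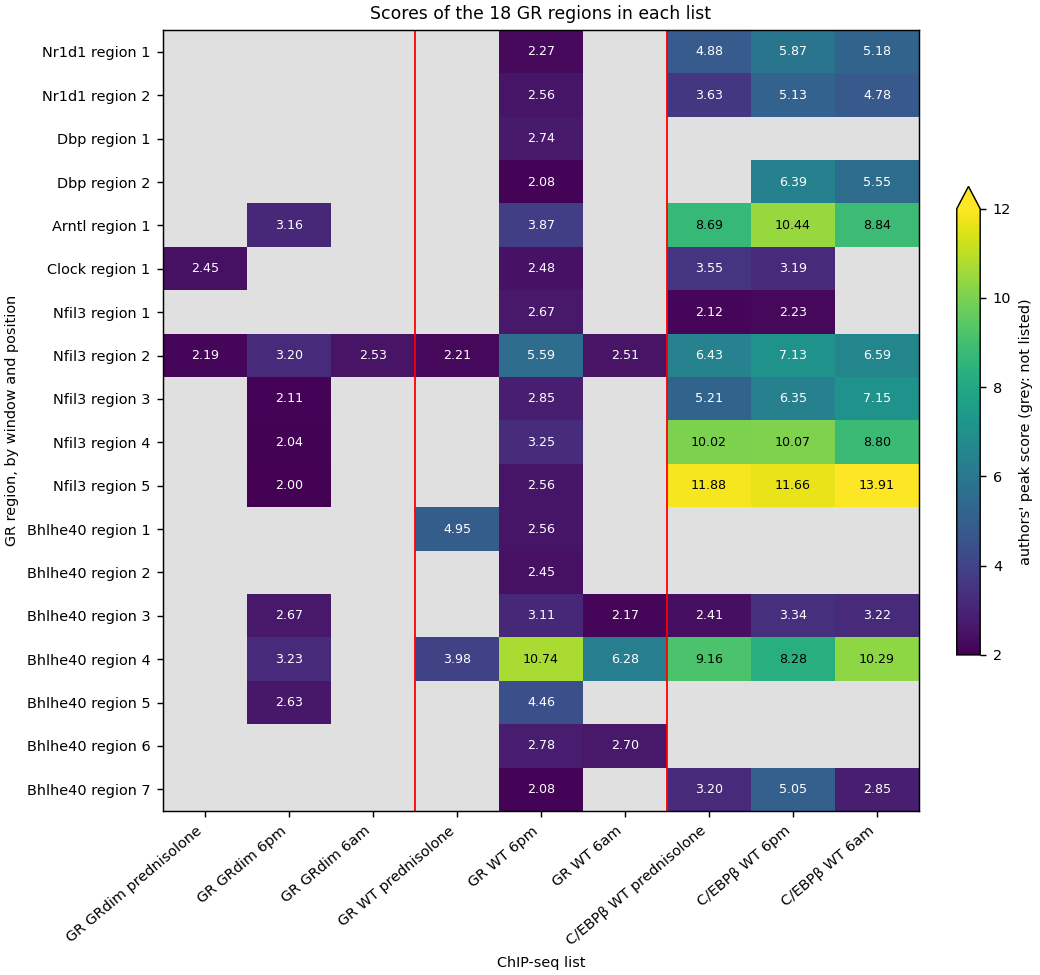
Authors' scores of the 18 GR regions (y) in the 9 ChIP-seq lists (x), with grey where a region is not listed. The column of WT at 6pm is filled in all rows, and that of GRdim at 6am in the row of Nfil3 region 2 alone.

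Bhlhe40, the gene of the E-box repressor, had 7 GR regions. In GRdim its window held 1.70 of the 7.38 RPM of all windows after prednisolone, 2.85 of 5.59 RPM at 6pm and no border at 6am. In WT it held most of the ChIP-exo tags, with 13.8 of 17.7 RPM after prednisolone, 19.2 of 29.9 RPM at 6pm and 11.8 of 16.5 RPM at 6am. The region with the highest score was Bhlhe40 region 4, on chromosome 6 at 108609473 to 108609684. In GRdim it was listed at 6pm alone, with 3.23 (rank 2839 of 7440). Its WT scores were 3.98 after prednisolone (rank 1199 of 4304), 10.74 at 6pm (rank 398 of 14270) and 6.28 at 6am (rank 490 of 5781). C/EBPβ was listed under all 3 conditions, with 9.16, 8.28 and 10.29.

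In GRdim the borders of region 4 summed to 0.199 RPM after prednisolone (0.0911 to 0.378) and 0.502 RPM at 6pm (0.315 to 0.760), and none was listed at 6am. In WT they summed to 4.26 RPM after prednisolone (3.73 to 4.84, 11 borders), 11.5 RPM at 6pm (10.5 to 12.6, 16 borders) and 4.83 RPM at 6am (4.27 to 5.44, 11 borders). The GRdim sums were below those of WT after prednisolone and at 6pm, with intervals apart. The WT sum of 6pm was 2.38 times that of 6am, with intervals apart, while those of prednisolone and 6am overlapped.

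Bhlhe40 region 1, at 108588543 to 108588765, was the one region of the windows with its highest score after prednisolone. It scored 4.95 in WT after prednisolone (rank 769 of 4304) and 2.56 at 6pm (rank 10422 of 14270), and it was not listed at 6am. No GRdim list held it. C/EBPβ was in none of its 3 lists there, and the nearest C/EBPβ peak after prednisolone was centred 19768 bp away.

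The borders of region 1 were also most abundant after prednisolone. WT had 6.56 RPM after prednisolone (5.90 to 7.28, 9 borders), 0.881 RPM at 6pm (0.624 to 1.21, 2 borders) and 1.22 RPM at 6am (0.947 to 1.55, 5 borders). The interval of the prednisolone sum lay above those of 6pm and 6am, and no GRdim library listed a border. The strongest border of the windows was here, on the plus strand in WT after prednisolone, with 95 tags. It lay 25 bp from the region centre, and the strongest plus-strand borders of 6pm (27 tags) and 6am (21 tags) lay at 24 and 26 bp. The strongest minus-strand border of prednisolone, with 71 tags, lay 30 bp beyond the plus-strand one, and at 6pm, with 11 tags, it lay 57 bp beyond. That of 6am, with 13 tags, lay 54 bp from the region centre, against 55 bp for that of prednisolone.

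**Figure D3:**
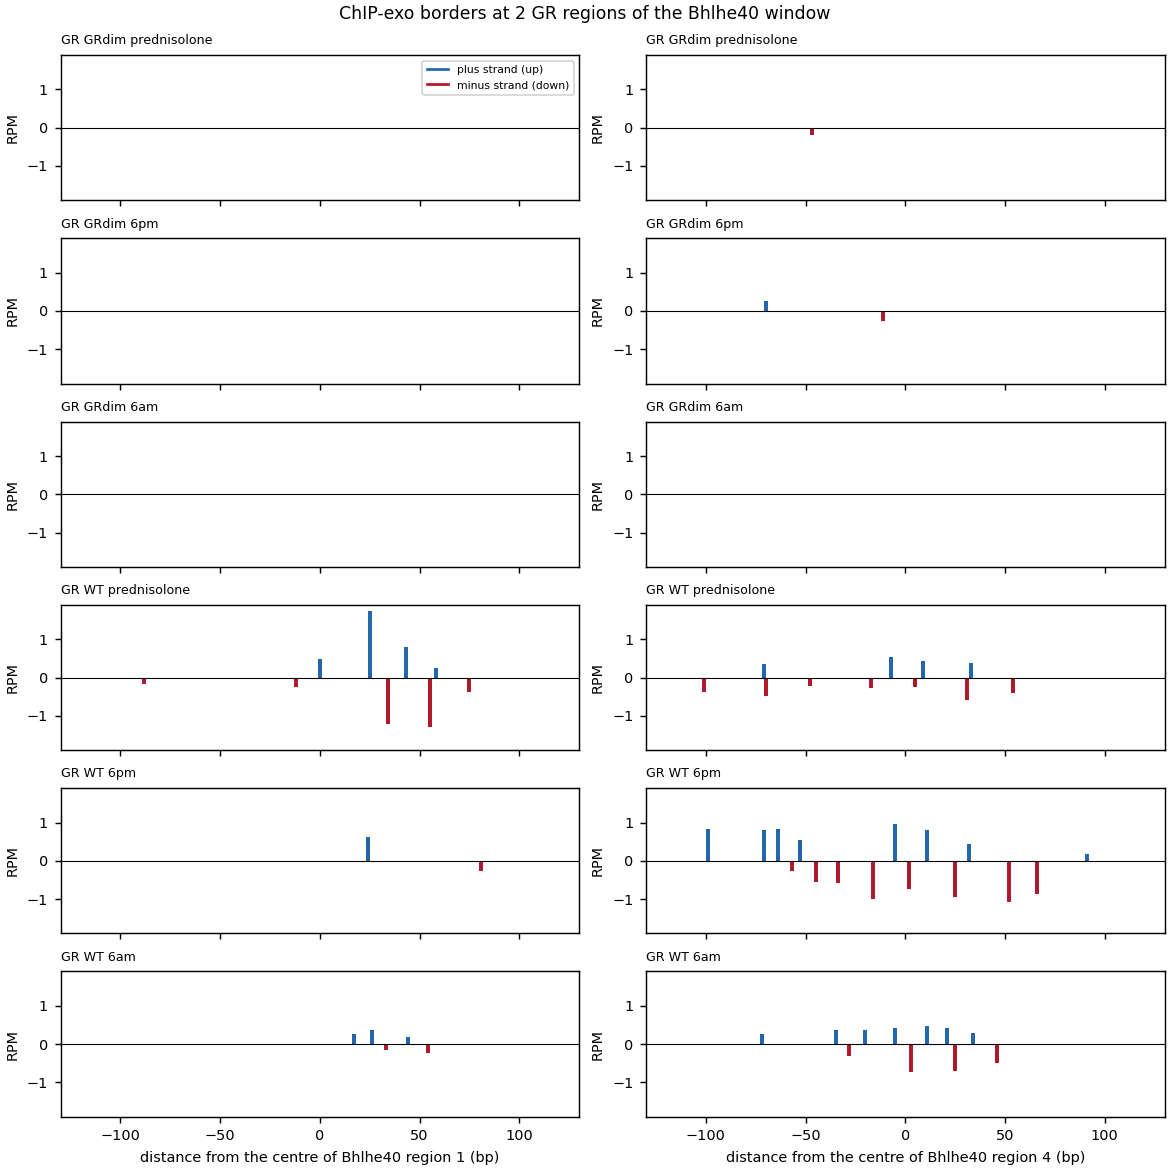
ChIP-exo borders of the 6 GR libraries at Bhlhe40 region 1 (left) and region 4 (right), in RPM (y, plus strand up and minus strand down) by distance from the region centre in bp (x). Region 1 has its tallest borders in WT after prednisolone and none in GRdim, while region 4 has 16 borders in WT at 6pm.

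The other GR regions of the Bhlhe40 window differed in their C/EBPβ. Region 3, at 108608483 to 108608724, scored 2.67 in GRdim at 6pm, and in WT 3.11 at 6pm and 2.17 at 6am, with C/EBPβ scores of 2.41, 3.34 and 3.22 after prednisolone, at 6pm and at 6am. Region 5, at 108610313 to 108610526, scored 2.63 in GRdim and 4.46 in WT, both at 6pm, and held no C/EBPβ peak. Its WT borders gave 0.128 RPM after prednisolone (0.0515 to 0.264), 2.06 at 6pm (1.66 to 2.54) and 1.08 at 6am (0.821 to 1.39). Neither prednisolone nor 6am had a WT peak there, and the 6am border sum was above that of prednisolone with intervals apart.

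Region 6, at 108618436 to 108618648, was in WT alone, with 2.78 at 6pm and 2.70 at 6am, and had no C/EBPβ peak. Its borders gave 0.348 RPM at 6pm (0.195 to 0.574) and 1.45 RPM at 6am (1.15 to 1.81), with intervals apart. The remaining 2 regions were in WT at 6pm alone, with scores of 2.45 and 2.08.

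**Figure D4:**
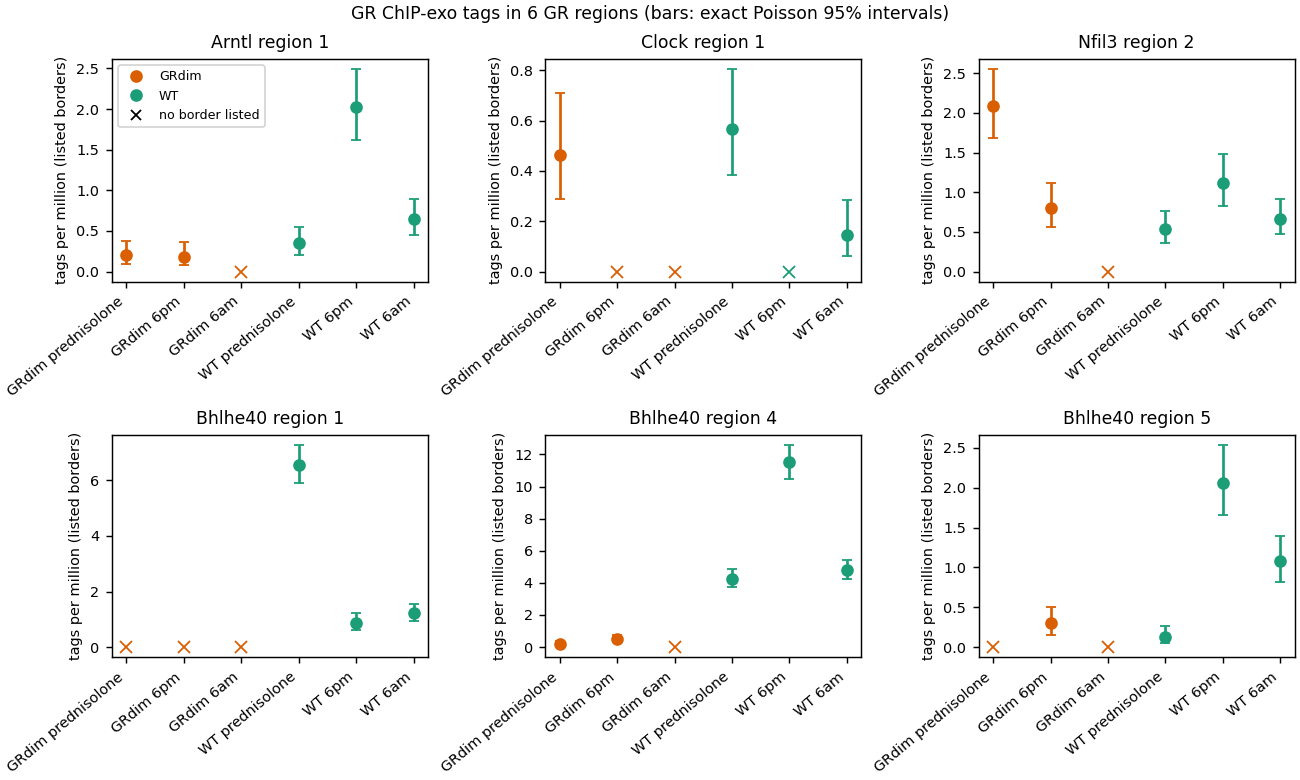
Summed RPM of listed ChIP-exo borders (y) in 6 GR regions, by library (x), with exact Poisson 95% intervals as bars and crosses where no border is listed. Bhlhe40 region 1 is highest in WT after prednisolone, Nfil3 region 2 in GRdim after prednisolone and Arntl region 1, Bhlhe40 region 4 and Bhlhe40 region 5 in WT at 6pm.

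In WT, 7 regions had listed borders at both 6pm and 6am. The 6pm sum was higher in 5 of them, with intervals apart in 3 (Arntl region 1, Bhlhe40 regions 4 and 5), and lower in 2, with intervals apart in region 6 of Bhlhe40. Between prednisolone and 6am, also 7 regions could be compared in WT. The prednisolone sum was higher in 2, Clock region 1 and Bhlhe40 region 1, with intervals apart in each. It was lower in 5, with intervals apart in 2 of them (Bhlhe40 regions 2 and 5). A ratio of listed borders leaves out regions where one library listed none. Of the 14 regions without a WT peak at 6am, 7 held a WT border of 6am, against 54.7% of all such regions in the genome.

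Setting GRdim against WT, 9 of the 18 regions were listed in at least 1 GRdim list, against 51.4% of all GR regions, and none in GRdim alone, against 3.09%. After prednisolone 1 of 3 WT peaks was in the GRdim list (33.3%, Wilson interval 6.15 to 79.2, against 48.5% of the whole list). At 6pm it was 8 of 18 (44.4%, 24.6 to 66.3, against 49.4%), and at 6am 1 of 4 (25.0%, 4.56 to 69.9, against 47.5%). In the other direction the WT lists held 1 of 2, 8 of 8 and 1 of 1 GRdim peaks, against 65.1%, 94.7% and 86.2% of the whole lists. Each of these intervals included the share of the whole list. With the 6pm lists cut to equal length, 4 of 8 GRdim peaks were in WT.

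Between conditions, 1 of 8 GRdim peaks of 6pm was listed at 6am (12.5%, 2.24 to 47.1, against 39.8% of the whole list), and 4 of 18 in WT (22.2%, 9.0 to 45.2, against 39.5%). Of the prednisolone peaks, 1 of 2 in GRdim and 2 of 3 in WT were listed at 6am, against 64.3% and 74.2% of the whole lists. Of the 6am peaks, 1 of 1 in GRdim and 2 of 4 in WT were listed after prednisolone, against 64.8% and 55.2%.

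The C/EBPβ lists held 34 peaks of the windows after prednisolone, 30 at 6pm and 26 at 6am. This is 0.155% of 21941, 0.114% of 26226 and 0.120% of 21644 peaks. The list of 6pm was thus the longest, and those of prednisolone and 6am were of similar length. The peaks merged into 39 sites. A GR peak of at least 1 list lay on 13 of the 39, against 41.1% of all C/EBPβ sites. Of the 39 sites, 21 were in all 3 lists, against 53.7% of all C/EBPβ sites, and 8 were listed after prednisolone alone, against 10.2%. Of those 8, 3 lay in the Nfil3 window, on chromosome 13 at 53068080 to 53068279, 53081180 to 53081379 and 53113438 to 53113637, with scores of 4.81, 5.10 and 4.74. No GR list held any of the 3. Of the other 5, the site beside Dbp region 2 scored 4.49 and those in the Nr1d1, Clock and Bhlhe40 windows scored 2.05 to 2.30. The median over the whole prednisolone list was 3.63, which lies between these sets. The site beside Dbp region 2 lay next to a site listed at 6pm and 6am and not after prednisolone. So did the site of the Nr1d1 window, at 98636445 to 98636644 on chromosome 11, beside one at 98636707 to 98636991. Their place among the 8 thus depends on merging only peaks that share at least 1 bp, and a wider gap was not tried for C/EBPβ.

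With each WT GR list set against the C/EBPβ list of its condition, 2 of 3 peaks after prednisolone held C/EBPβ (66.7%, 20.8 to 93.9, against 75.7% of the whole list), 13 of 18 at 6pm (72.2%, 49.1 to 87.5, against 83.2%) and 3 of 4 at 6am (75.0%, 30.1 to 95.4, against 79.7%). An overlap of at least 1 bp was counted here, and with centres within 100 bp the shares of the windows were 33.3%, 61.1% and 50.0%. Of the 18 regions in any list, 12 held C/EBPβ after prednisolone, 13 at 6pm and 11 at 6am, against 58.4%, 79.8% and 67.3% of all GR regions. In total 10 held it in all 3 lists and 13 in at least 1, against 54.0% and 82.5% of all GR regions. The 5 without it were Dbp region 1 and Bhlhe40 regions 1, 2, 5 and 6. Without the Bhlhe40 window, which holds most of these 5, 10 of 11 WT peaks of 6pm held C/EBPβ (90.9%). That window was left out after seeing the data, so the higher share follows from the choice. Seen from C/EBPβ, 2 of 34 peaks overlapped a WT GR peak after prednisolone (5.88%, 1.63 to 19.1, against 14.8%), 13 of 30 at 6pm (43.3%, 27.4 to 60.8, against 45.3%) and 3 of 26 at 6am (11.5%, 4.00 to 29.0, against 21.3%).

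ChIP-exo borders of GR were also listed at C/EBPβ sites that had no GR peak. There were 26 such sites, and 12 of them held a border of at least 1 GR library, against 25.5% of all such sites in the genome. In the Nr1d1 window it was 5 of 7. One of them, on chromosome 11 at 98644800 to 98645005, had C/EBPβ scores of 6.93 after prednisolone, 7.69 at 6pm and 6.63 at 6am. Its borders, all in WT, were 1 after prednisolone (13 tags) and 3 at 6am (30 tags). Near Dbp the site with the highest C/EBPβ scores, at 52973312 to 52973522 on chromosome 7, scored 11.06, 9.40 and 8.76 in that order. It held the only border that the GRdim library of 6am listed in the windows, with 10 tags, and 1 border of WT after prednisolone with 11 tags.

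A ChIP-exo border of the same condition and genotype lay in 2 of 2 GRdim peaks after prednisolone, 4 of 8 at 6pm and 0 of 1 at 6am, against 97.0%, 81.9% and 77.2% of the whole lists. In WT it lay in 3 of 3, 15 of 18 and 3 of 4 peaks in the same order, against 95.2%, 76.8% and 97.5%. All 18 regions held a border of at least 1 WT library and 9 a border of at least 1 GRdim library. The libraries held 45.2, 43.8 and 31.6 M tags in GRdim and 54.7, 43.1 and 55.7 M in WT after prednisolone, at 6pm and at 6am. The GRdim library of 6am was thus the smallest, and its list of 14391 borders the shortest.

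Where GR borders of both strands lay within 100 bp of a peak centre, the distance between the strongest plus-strand and minus-strand border was measured. This was possible for 13 of the 36 GR peaks of the windows. At Nfil3 region 2 the minus-strand border lay 12 bp beyond the plus-strand one in GRdim after prednisolone and 11 bp in WT at 6am. At Arntl region 1 it was 19 bp in WT at 6pm, from borders of 27 and 21 tags. At Bhlhe40 region 4 the distance was 59 bp in GRdim at 6pm, and in WT 38 bp after prednisolone, 57 bp at 6pm and -8 bp at 6am. The minus sign means that the order of the strands was turned round. In that 6am list the strongest minus-strand border had 40 tags, 3 bp from the region centre, and another had 39 tags at 25 bp. The plus-strand border lay at 11 bp, so the order of the strands rests on which of these near-equal borders was taken. At Bhlhe40 region 1 it was 30 bp after prednisolone and 57 bp at 6pm, both in WT. The 6pm value used the only minus-strand border listed there, of 11 tags. WT at 6am had no peak there, so its distance was not measured. Its strongest borders lay 26 bp (plus strand, 21 tags) and 54 bp (minus strand, 13 tags) from the region centre, and those of prednisolone 25 and 55 bp. The minus-strand border used after prednisolone had 71 tags, and another, nearer to the plus-strand one, had 66. The distance between the strongest borders thus differed between the measured lists of Bhlhe40 regions 1 and 4, where near-equal borders or a single weak border can decide its value. It was within 1 bp in those of Nfil3 region 2, whose pairs included borders of under 20 tags. In the remaining peaks the distance was -36 bp at Dbp region 1 and 123 bp at Bhlhe40 region 5, both in WT at 6pm. It was 67 bp at Clock region 1 in GRdim after prednisolone and 88 bp at Bhlhe40 region 6 in WT at 6am.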

How the data were processed

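The 6 GR ChIP-seq lists, 3 C/EBPβ ChIP-seq lists and 6 GR ChIP-exo lists were used. The 2 RNA polymerase II and 12 input samples were not analysed here. The submitters' processing notes name Bowtie, HOMER and mm9, whose roles, versions and calling threshold are not stated there. The deposited ChIP-seq files give 200 bp intervals with a score that the authors assigned. The deposited ChIP-exo files give, per the file headers, a tag count, the authors' RPM and a height signal, which was not used. Library sizes are the count divided by the RPM. The ChIP-seq depth is unknown.

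Peaks shared at least 1 bp, and centres decided membership of a window. Shares have Wilson and tag sums exact Poisson 95% intervals, which cover counting error only, since tags are not independent molecules. Peaks and borders are not replicates, and p-values were not computed. Members, lists and named regions (up to 5 per window by highest score, GRdim-only regions and the leading prednisolone region) were chosen with earlier results of these data known. Simulated shares of 20%, 50% and 80% of 4000 peaks were recovered exactly, with each partner set to overlap or to lie well apart. This checks the counting code only, not shares from few peaks. Alternatives were centres within 100 bp, scores of at least 4, wider windows, equal list lengths, borders within 60 bp or with at least 20 tags. Gene names and neighbours came from RefSeq (GRCm38.p6), none of whose positions were set beside mm9. Without an mm9 annotation, peaks were not placed in exons or introns, and other clock genes and liver markers were not counted. Coordinates count from 1. Software versions were matplotlib 3.10.9, scipy 1.17.1, pandas 2.3.3 and numpy 2.4.6 under Python 3.11.15.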

Additional observations from a re-analysis of the deposited data

Results flagged for a closer look

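At 3 of the 4 regions with listed borders in the 4 libraries of prednisolone and 6pm, the ratio of ChIP-exo sums of prednisolone over 6pm was above 1 in GRdim and below 1 in WT, and this difference between the genotypes was not tested. Each value rests on 1 library per condition. At Arntl region 1 the prednisolone sum was 1.09 times that of 6pm in GRdim and 0.172 times in WT, a log2 difference of 2.66. The GRdim ratio rests on 1 border of 9 tags after prednisolone and 1 of 8 tags at 6pm, with overlapping intervals, so no direction can be read from it. At Nfil3 region 2 the ratios were 2.60 in GRdim and 0.477 in WT, a log2 difference of 2.45, with intervals of the 2 conditions apart in both genotypes. At the last region of the Bhlhe40 window (region 7) the ratios were 1.49 in GRdim and 0.647 in WT, a log2 difference of 1.20, with overlapping intervals in both genotypes and at most 20 tags per library. At the fourth region, Bhlhe40 region 4, the ratios were 0.396 in GRdim and 0.370 in WT.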

How the results depend on the processing

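Of 105 recomputed values of 32 results, 68 stayed within the interval of the share or within 1.5 times the count. The intervals of shares from few peaks are wide, so staying within them does not show that a share was stable. The share of WT prednisolone peaks with C/EBPβ, from 3 peaks, went from 66.7% to 33.3% with centres within 100 bp. It still lay within its interval of 20.8 to 93.9. Widening the windows by 20 kb gave 18 GR regions again, as did merging across gaps of up to 200 bp. With scores of at least 4, 4 GR regions remained, and 11 without the Bhlhe40 window (chosen after seeing the data). With that score, the GRdim lists held 0 peaks under each condition, and WT 1 after prednisolone, 3 at 6pm and 1 at 6am. The C/EBPβ lists then held 18, 19 and 17. Cut to the length of the 6am lists (chosen after seeing the data), the 6pm lists held 3 peaks in GRdim and 4 in WT.

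The share of GRdim peaks listed in WT was 0%, 50.0% and 0% after prednisolone, at 6pm and at 6am with lists of equal length. WT peaks listed in GRdim came to 0%, 100% (4 of 4) and 0% with equal lengths, and to 0%, 100% (3 of 3) and 0% with scores of at least 4. WT peaks of 6pm listed at 6am came to 50.0% (2 of 4) with equal lengths and 66.7% (2 of 3) with that score. Of WT prednisolone peaks with that score 0% were listed at 6am, and of WT 6am peaks with it 100% (1 of 1) after prednisolone. C/EBPβ was at 0% (0 of 1) of WT prednisolone peaks and 100% (1 of 1) of 6am peaks with that score. Without the Bhlhe40 window (chosen after seeing the data) its share was 100% (1 of 1), 90.9% and 100% (1 of 1) after prednisolone, at 6pm and at 6am.

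With at least 20 tags per border, 0% of GRdim peaks at 6pm held one, 38.9% of WT peaks at 6pm and 25.0% at 6am. With scores of at least 4 it was 100% in WT at 6pm (3 of 3) and at 6am (1 of 1). Peaks with borders of both strands numbered 13, and 6 with at least 20 tags per border. For 9 shares no counted peak scored at least 4, so that alternative gave no value. No paired analysis was possible because each list is 1 pool. Few peaks per list set these limits: 1 peak moves a share by much, and weak binding below the calling threshold is not in the lists.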

Other observations

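Of the 243 ChIP-exo borders in the windows, 141 (58.0%) lay in a GR region, 37 (15.2%) in a C/EBPβ site without one and 65 (26.7%) in neither. Over the whole lists, by library, 75.6% to 85.0% of nuclear borders lay in a GR region and 4.63% to 6.71% in a C/EBPβ site without one. In the Bhlhe40 window 91 borders lay in GR regions and 30 in neither, with up to 95 and 34 tags per border. In the Nr1d1 window the order was the other way, with 2 borders in GR regions, 16 in C/EBPβ sites and 13 in neither, none with more than 18 tags. One border in neither lay just outside Dbp region 1, on chromosome 7 at 52963010 to 52963019, with 13 tags in GRdim after prednisolone.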
